A study of Mus musculus with 17 samples.

Results

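The proteasome genes were taken as every gene whose platform symbol began with Psm, a letter from a to g and a digit. This gave 42 of 9030 named genes and 51 of 20794 probes. Psmc3ip and Psme3ip1 fit the symbol rule but encode no part of the proteasome, so 40 genes were described as proteasome genes: 6 subunits of the 20S alpha rings, 7 constitutive subunits of the 20S beta rings, 4 inducible or tissue-specific beta subunits, 7 subunits of the 19S base, 6 of the 19S lid, 5 activators or inhibitors and 5 assembly chaperones. Of the 42 genes, 36 had 1 probe, 4 had 2, 1 had 3 and 1 had 4.

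The samples were livers of mice lacking Afp (AFP1 KO), each co-hybridised with a pool of wild-type liver RNA on 2-colour cDNA arrays. The tested animals were 6 mutant males of 17 weeks and 6 mutant embryos, 3 female and 3 male, whose stage the labels give as embryonic day 7.5. The adult pool held RNA of 6 wild-type males of 17 weeks, and the fetal pool RNA of 4 wild-type embryos of the same labelled stage. All 6 adults had an array with the mutant in the red dye Cy5, 5 of them (not animal 5) had a further array with the mutant in the green dye Cy3, and each embryo had 1 array with the mutant in Cy5. The sources used here give neither the strain nor the kind of Afp allele, and the labelled embryonic stage, which comes before the mouse liver has formed, could not be checked. Wild-type RNA was present only as a pool, so the tests leave out the spread between wild-type animals. Every value is read here as a log2 ratio of mutant over pool: 0 means equal signal, 1 a doubling and -1 a halving. Such a ratio gives neither the level of a transcript nor its abundance relative to another gene.

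The 26S proteasome degrades proteins that carry ubiquitin chains. Its 20S core is a barrel of alpha and beta rings with the peptide-cutting sites inside, and the 19S particle on its ends binds, unfolds and deubiquitinates the substrate. In liver, as in other tissues, transcripts of the core and of the 19S particle are known to rise together when proteasome activity is blocked, through the transcription factor Nfe2l1, and interferon swaps in the inducible catalytic beta subunits that favour peptides for antigen presentation.

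Upstream sequences are shown for the 3 genes with the largest mean ratios, by size, on adult arrays with the mutant in Cy5. Only genes tested there (4 or more values, which leaves out Psmb3) were considered. These sequences enter none of the comparisons below. They are the 250 bases before the RefSeq start site (assembly GRCm38.p6), written 5′ to 3′ on the gene's strand, with CCAAT boxes, searched as CCAAT on both strands, in capitals (ATTGG where the box lies on the opposite strand).
Psma1, chr7:114276117-114276366 (minus strand): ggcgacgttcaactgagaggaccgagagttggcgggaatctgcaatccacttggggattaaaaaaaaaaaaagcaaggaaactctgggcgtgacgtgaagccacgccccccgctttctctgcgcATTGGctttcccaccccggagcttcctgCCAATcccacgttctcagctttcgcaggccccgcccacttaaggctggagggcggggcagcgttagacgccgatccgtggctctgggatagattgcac
Psmd14, chr2:61711444-61711693 (plus strand): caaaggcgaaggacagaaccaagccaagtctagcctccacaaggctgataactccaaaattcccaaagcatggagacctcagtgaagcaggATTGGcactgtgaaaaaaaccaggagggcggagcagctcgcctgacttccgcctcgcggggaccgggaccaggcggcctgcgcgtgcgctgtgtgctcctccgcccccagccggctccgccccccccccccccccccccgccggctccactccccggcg
Psmd4, chr3:95042615-95042864 (minus strand): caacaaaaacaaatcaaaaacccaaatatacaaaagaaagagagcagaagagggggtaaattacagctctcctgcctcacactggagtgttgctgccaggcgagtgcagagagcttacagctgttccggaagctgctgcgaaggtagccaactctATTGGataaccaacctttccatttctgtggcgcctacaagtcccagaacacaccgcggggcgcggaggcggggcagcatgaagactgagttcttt
Psma1 held 2 boxes in this window, and Psmd14 and Psmd4 held 1 each. Over the 34 proteasome genes with such a window, some with several start sites, 12 of 37 windows held CCAAT (32.4%), against 35.4% of all 21263 windows of the RefSeq table. The GC box, GGGCGG, stood in 56.8% of the proteasome windows, against 42.6% of all. The core of the antioxidant response element, TGACNNNGC, which is known to bind Nfe2l1 and Nfe2l2, stood in 13.5%, against 10.4% of all. These are matches of letters on both strands and not shown to be bound.

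Afp, the targeted gene, lay at -8.40 ± 0.23 in the mutant embryos (SD, n = 6, limma adjusted p = 1.25e-08) and at -0.03 ± 0.19 in the mutant adults (n = 6, adjusted p = 0.944), so the adult ratio leaves the knockout label unchecked. Arrays held values for 20078 to 20697 probes. Arrays of the same adult animal with opposite dyes correlated negatively over all probes (Spearman median -0.286), as did opposite-dye arrays of different animals (-0.263). The labels do not state the direction of the Cy3 arrays, and ratios left unturned for the dye would correlate negatively too. Mutant over pool was assumed there. All values past 10 in size were negative on those arrays and positive on the others. That sign does not settle the direction, since unturned ratios of genes higher in the mutant would read so too. The dye orientations are therefore also given apart. The fetal value of a probe was read 11 rows below its name, as the fetal arrays' correlation with the adult dye profile was highest there (0.382, against 0.0164 at 0 rows), and this shift held for probes up to 20000. Psmd12, whose probe lies beyond that limit, has no fetal value here. Embryo 6 did not show the dye profile (0.0167), which the other embryos showed at 0.209 to 0.471.

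In adult mutant liver the proteasome genes leaned below the wild-type pool, by a small amount and with a different size in each animal. Of 40 genes tested, 30 had a mean below 0 and 10 above, with a median of -0.17 and a range of -0.67 to 1.26. Over all 17039 features tested, 48.2% lay below 0 and the median was 0.01. No proteasome gene passed limma's test after Benjamini-Hochberg adjustment, and the share passing over all features was 0 as well. At an unadjusted p under 0.05, 3 proteasome genes stood apart from 0, 1 above and 2 below, against 1321 features or 7.75% of all. The median of the proteasome genes was 0.08 in animal 1, -0.09 in animal 2, -0.15 in animal 3, -0.23 in animal 4, -0.395 in animal 5 and -0.25 in animal 6, while the median of all features lay between -0.06 and 0.03. Animal 1 thus stood above 0 and the other 5 below. Animal 5 has only an array with the mutant in Cy5.

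**Figure D1:**
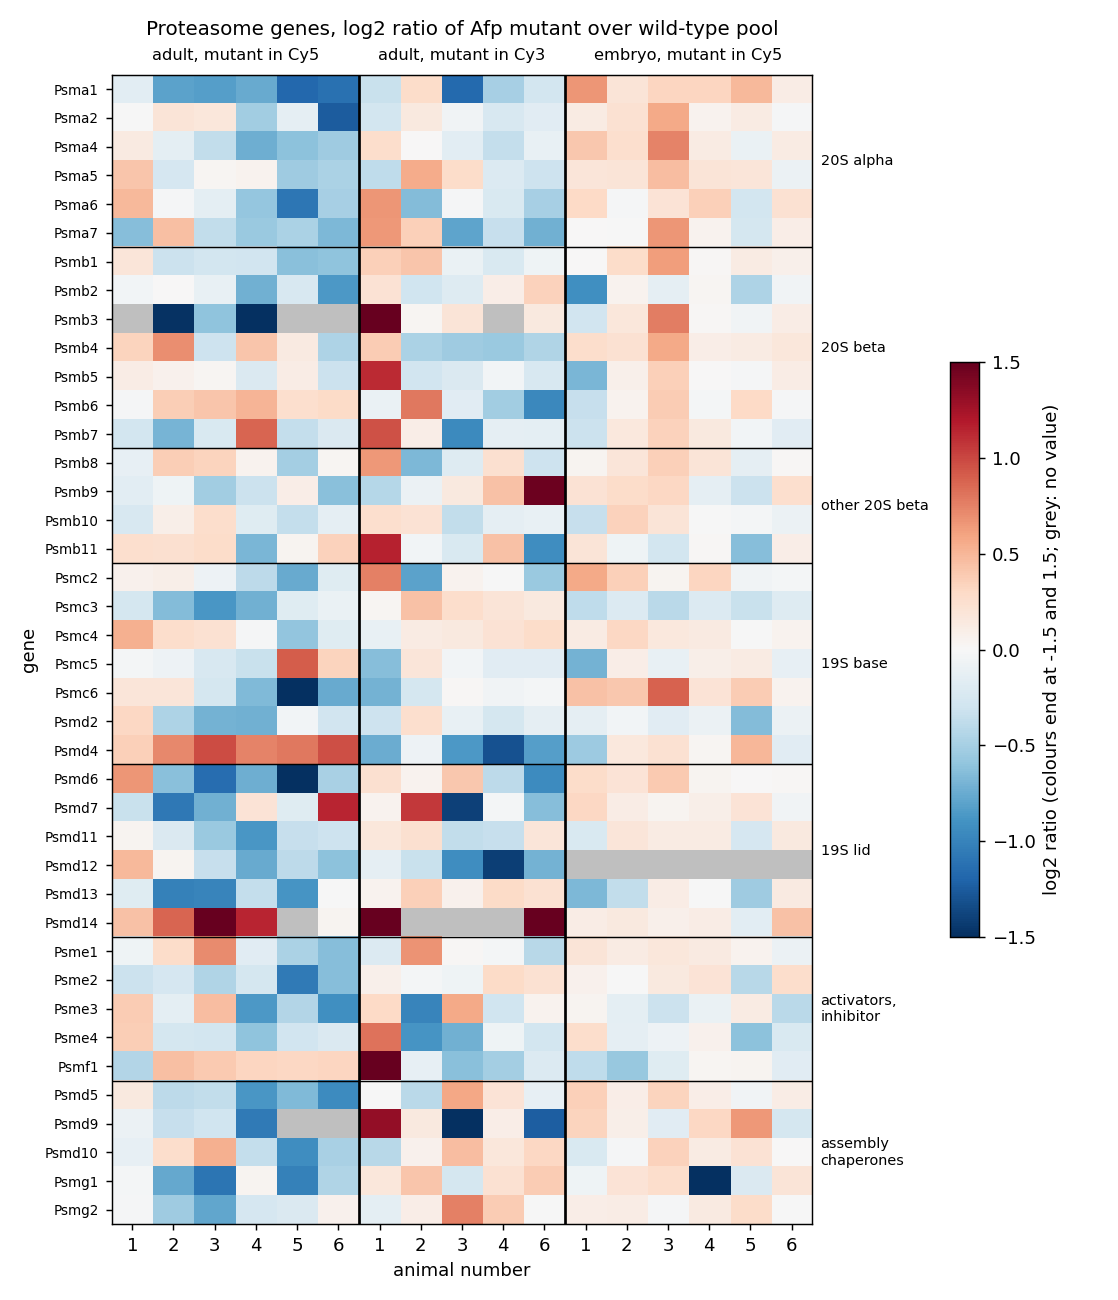
Log2 ratio of mutant over pool for each proteasome gene (rows, by part of the complex) on each array (columns, by age, dye of the mutant and animal number); colours end at -1.5 and 1.5 and grey marks no value. Blue fills much of the adult Cy5 columns of animals 3 to 6, and Psmd4 changes colour between the adult dye orientations.

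The lean was steeper on the arrays with the mutant in Cy5. Of 39 proteasome genes tested there, 30 lay below 0 and 9 above (median -0.26, against -0.07 and 57% below 0 over all 16896 features). limma passed 2 of them, Psmd4 higher and Psma1 lower, in a comparison where 6.55% of all features passed, 994 higher and 112 lower. By an unadjusted p under 0.05, 10 proteasome genes lay below 0 and 3 above, against 26.5% of all features in either direction. On the arrays with the mutant in Cy3, 23 of 39 lay below 0 and 16 above (median -0.04, against 0.08 and 42.3% below 0 over all 16945 features). None passed there, where 3.71% of all features passed, 9 higher and 620 lower, and 2 had an unadjusted p under 0.05, both below 0. Leaving out each animal in turn, that median lay between -0.10 (without animal 1) and 0.01 (without animal 3). These sets of arrays share animals and the pool, so their values are given side by side. The proteasome median by animal was -0.01, -0.07, -0.27, -0.36, -0.395 and -0.39 with the mutant in Cy5 (animals 1 to 6) and 0.17, 0.07, -0.11, -0.10 and -0.16 with the mutant in Cy3 (animals 1, 2, 3, 4 and 6). Animals 3, 4 and 6 were below 0 with either dye, if the Cy3 arrays are mutant over pool. With the Cy3 arrays turned in sign, the proteasome median over both orientations was -0.12, against -0.17 as deposited.

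**Figure D2:**
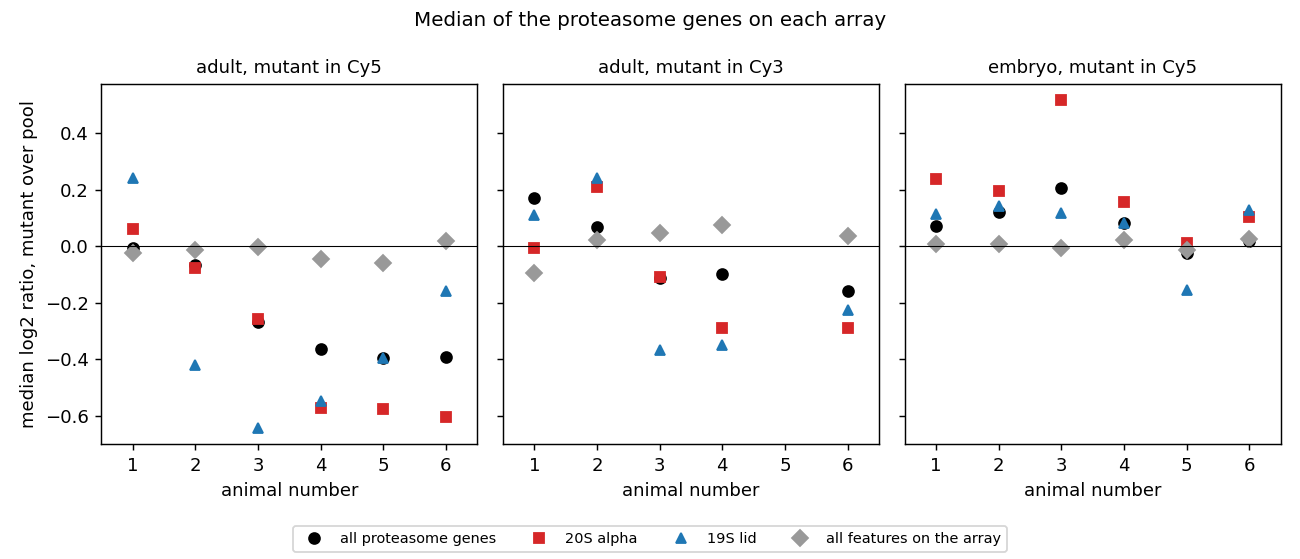
Median log2 ratio of the proteasome genes (black), of the 20S alpha subunits (red), of the 19S lid subunits (blue) and of all features (grey) on each array, by animal number. The median of the alpha subunits lies near -0.6 in adult animals 4 to 6 with the mutant in Cy5. It lies above 0 in each of the 6 embryos, at 0.01 in embryo 5.

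Markers of liver cell types were read beside this lean. In the adults over both orientations none of them passed, and neither did any other feature. Over both orientations, 4 of 4 hepatocyte markers lay below 0 in the adults (median -0.52), as did 3 of 3 erythroid markers (median -0.31). So did 4 of 4 endothelial markers (median -0.60), while 5 of 5 leukocyte markers lay above 0 (median 0.16). Hepatocyte markers were 4 of 4 below 0 in either orientation. Erythroid markers were 3 of 3 below on the Cy5 arrays and 2 of 3 on the Cy3 arrays. Endothelial markers were 2 of 3 and 3 of 4 below, and leukocyte markers 5 of 5 and 4 of 5 above. Among the endothelial markers Pecam1 averaged 0.23 and -0.68, and Cdh5 -0.81 and -0.45. Over both orientations Kdr averaged -0.87 ± 1.87 (n = 5) and Tek -0.53 ± 1.44 (n = 6). In the embryos 3 of 3 hepatocyte markers lay above 0 (median 0.18), 3 of 3 erythroid markers below (median -0.23), and the leukocyte markers were split 3 above and 2 below (median 0.01). Cholangiocyte markers had medians of 0.01 in adults and -0.29 in embryos, and stellate cell and fibroblast markers 0.15 and 0.09. Cd52, a leukocyte marker, was higher with the mutant in Cy5 (0.83) and lower with the mutant in Cy3 (-0.78). The pancreas markers Cela2a and Cpa1 were both lower in the embryos (median -1.23). The part of these markers in the proteasome values was not tested, and in whole liver fewer cells of a type and less RNA per cell cannot be told apart.

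The alpha subunits, which form the outer rings of the core and its gate, had adult means below the pool, though not in every animal. All 6 had an adult mean below 0, from -0.67 to -0.11 (median -0.28), all 6 were below 0 with the mutant in Cy5 (median -0.34) and all 6 with the mutant in Cy3 (median -0.13). In the embryos all 6 had a mean above 0, from 0.09 to 0.35 (median 0.18). The alpha median by embryo was 0.24, 0.19, 0.52, 0.15, 0.01 and 0.10. In embryo 5, 3 of the 6 lay below 0, and in embryos 2 and 6, 2 of the 6 did. In the adults the alpha median over both orientations was 0.01 in animal 1, 0.04 in animal 2, -0.17 in animal 3, -0.43 in animal 4, -0.576 in animal 5 and -0.60 in animal 6. In adult animal 2 with the mutant in Cy3, 5 of the 6 lay above 0. Psma1 alone passed, with the mutant in Cy5.

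Among them Psma1 lay farthest from 0. On the Cy5 arrays it read -0.16, -0.80, -0.82, -0.76, -1.18 and -1.12 in adult animals 1 to 6. On the Cy3 arrays it read -0.33, 0.27, -1.17, -0.49 and -0.27 in animals 1, 2, 3, 4 and 6. In the embryos it read 0.66, 0.20, 0.32, 0.32, 0.48 and 0.11. Every adult Cy5 value lay below 0 and every embryo above it, while 1 adult Cy3 value fell within the embryos' range. Psma1 was singled out by these same values, and the share of all features parted this way was not counted. The mean was -0.81 ± 0.36 with the mutant in Cy5 (SD, n = 6, limma adjusted p = 0.0307) and -0.40 ± 0.52 with the mutant in Cy3 (n = 5, adjusted p = 0.323). The mean of the animals was -0.67 (95% interval -1.01 to -0.32, adjusted p = 0.639), and -0.335 with the Cy3 arrays turned in sign (adjusted p = 0.250).

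The other alpha subunits were smaller in size. Psma4 read 0.13, -0.14, -0.36, -0.73, -0.62 and -0.53 in the adults with the mutant in Cy5, 0.26, 0.01, -0.16, -0.35 and -0.11 with the mutant in Cy3, and 0.41, 0.26, 0.74, 0.12, -0.10 and 0.12 in the embryos. Adult animals 3 to 6 lay below 0 wherever they were measured, and 5 of 6 embryos above. Psma7 averaged -0.38 in the Cy5 and -0.17 in the Cy3 orientation, Psma6 -0.31 and -0.14, Psma2 -0.26 and -0.12, and Psma5 -0.12 and -0.02. None of these passed in either orientation.

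The constitutive beta subunits, which include the catalytic sites, showed no common direction in the adults: 4 of 7 lay below 0 and 3 above (median -0.06). Psmb5 carries the chymotrypsin-like site, Psmb6 the caspase-like site and Psmb7 the trypsin-like site. Psmb5 read 0.11, 0.06, 0.03, -0.21, 0.11 and -0.32 in the adults with the mutant in Cy5, 1.11, -0.29, -0.21, -0.04 and -0.24 with the mutant in Cy3, and -0.69, 0.08, 0.36, 0.00, -0.02 and 0.11 in the embryos. Apart from animal 1 with Cy3 and embryo 1, these values lay within 0.36 of 0. Psmb7 read -0.27, -0.70, -0.23, 0.88, -0.36 and -0.21 in the adults with the mutant in Cy5, 0.95, 0.10, -0.96, -0.13 and -0.15 with the mutant in Cy3, and -0.32, 0.16, 0.34, 0.15, -0.05 and -0.17 in the embryos. Its values fell on both sides of 0 in every set. Psmb6 read -0.02, 0.37, 0.42, 0.51, 0.25 and 0.29 with the mutant in Cy5, -0.10, 0.79, -0.17, -0.52 and -0.97 with the mutant in Cy3, and -0.35, 0.05, 0.38, -0.03, 0.30 and -0.02 in the embryos. It averaged 0.30 ± 0.18 with the mutant in Cy5 (above 0 in 5 of 6 animals, adjusted p = 0.149), -0.19 ± 0.65 with the mutant in Cy3 and 0.06 ± 0.26 in the embryos.

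Psmb3, a structural beta subunit, had the widest spread. It read -1.48, -0.61 and -1.67 in animals 2, 3 and 4 with the mutant in Cy5 and had no value in the other 3. On the Cy3 arrays it read 3.55, 0.03, 0.19 and 0.15 in animals 1, 2, 3 and 6. The adult mean of 0.22 ± 1.98 (n = 5) rests on animal 1, without which it was -0.61 ± 0.79 (n = 4). In the embryos it averaged 0.12 ± 0.35 (n = 6). Psmb1 averaged -0.32 in the Cy5 and 0.08 in the Cy3 orientation, and Psmb2 -0.33 and 0.03, with 0.19 and -0.25 in the embryos.

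The inducible catalytic subunits had adult means close to the pool. Psmb8, Psmb9 and Psmb10 replace the 3 constitutive catalytic subunits. Psmb8 read -0.13, 0.37, 0.33, 0.05, -0.51 and 0.03 in the adults with the mutant in Cy5, 0.65, -0.67, -0.19, 0.24 and -0.30 with the mutant in Cy3, and 0.05, 0.18, 0.36, 0.20, -0.14 and 0.02 in the embryos. Psmb9 read -0.16, -0.06, -0.52, -0.32, 0.10 and -0.63 with the mutant in Cy5, -0.43, -0.09, 0.14, 0.44 and 1.47 with the mutant in Cy3, and 0.21, 0.27, 0.31, -0.13, -0.33 and 0.25 in the embryos. Its orientations averaged -0.27 ± 0.28 and 0.31 ± 0.73, with animal 6 far above the others in the Cy3 orientation. Psmb10 read -0.23, 0.09, 0.26, -0.18, -0.36 and -0.14 with the mutant in Cy5, 0.25, 0.22, -0.36, -0.14 and -0.12 with the mutant in Cy3, and -0.35, 0.35, 0.20, -0.01, -0.02 and -0.09 in the embryos. Over the adults these genes averaged -0.05, 0.00 and -0.09, and none passed in the 6 comparisons, where their smallest adjusted p was 0.244, for Psmb9 between adults and embryos. With the adult dye profile subtracted (-0.32 for Psmb9), the fetal mean of Psmb9, 0.10, became 0.42 (limma adjusted p = 0.0201). That fit passed 11 proteasome genes and 4930 features, against 0 of 39 and 26 of 17242 without the subtraction. The calls thus rose over the whole array and not for these genes alone. It took the profile, from 5 adults, as fixed, so its p leaves out the profile's spread. Psmb11, the thymus-specific subunit, averaged 0.08 in the adults and -0.11 in the embryos.

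The 19S base holds the ATPase ring, encoded by the Psmc genes, and the scaffold and ubiquitin receptor subunits Psmd2 and Psmd4. In the adults 4 of its 7 genes lay below 0 and 3 above (median -0.16).

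Psmd4, the ubiquitin receptor known as Rpn10, changed direction with the dye. On the Cy5 arrays it read 0.36, 0.72, 0.98, 0.74, 0.79 and 0.96, and with the mutant in Cy3 -0.75, -0.07, -0.86, -1.30 and -0.83. All 6 Cy5 values were above 0 and all 5 Cy3 values below. The means were 0.76 ± 0.22 (adjusted p = 0.0299) and -0.76 ± 0.44 (adjusted p = 0.0841), and the mean of the animals 0.13 ± 0.39. With the Cy3 arrays turned in sign that mean was 0.76 (adjusted p = 0.00649). Its dye profile, the Cy5 minus Cy3 difference divided by 2 over the 5 animals with both, was 0.76. In the embryos, all with the mutant in Cy5, it read -0.55, 0.16, 0.23, 0.03, 0.50 and -0.17 (mean 0.03 ± 0.36). Of the embryos, embryo 5 alone lay within the range of the adult Cy5 values.

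Psmc3, the ATPase Rpt5, also stood on opposite sides of 0. It read -0.27, -0.65, -0.87, -0.73, -0.18 and -0.10 in adults with the mutant in Cy5, 0.03, 0.44, 0.26, 0.19 and 0.15 with the mutant in Cy3, and -0.38, -0.20, -0.40, -0.21, -0.34 and -0.19 in the embryos. It was below 0 on all 12 arrays with the mutant in Cy5 and above 0 on all 5 with the mutant in Cy3. Its dye profile was -0.37. The fetal mean, -0.29 ± 0.10, had the smallest p of the proteasome genes in the embryos and did not pass (adjusted p = 0.0906).

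Psmc6, the ATPase Rpt4, read 0.18, 0.18, -0.26, -0.66, -1.71 and -0.76 in adults with the mutant in Cy5 and -0.70, -0.27, 0.02, -0.05 and -0.03 with the mutant in Cy3. In the embryos it read 0.44, 0.40, 0.89, 0.20, 0.39 and 0.05, above 0 in 6 of 6. The adult mean of -0.48 ± 0.62 was -0.24 ± 0.15 without animal 5, and the fetal mean was 0.39 ± 0.28 (adjusted p = 0.120). Psmc2 averaged -0.21 and 0.20 in adults and embryos, Psmd2 -0.21 and -0.19, and Psmc4 0.02 and 0.13.

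Psmc5, the ATPase Rpt6, was measured by 3 probes that disagreed. With the mutant in Cy5 they averaged -0.52, 0.55 and 0.26, with the mutant in Cy3 0.04, -0.83 and 0.29, and in the embryos -0.19, 0.15 and -0.27 (probes 7501, 18151 and 19519). Probe 18151 alone passed, lower with the mutant in Cy3 (adjusted p = 0.0347, among 906 of 20635 probes), while it averaged above 0 in the other orientation. The gene mean of 0.05 ± 0.45 in the adults therefore joins probes of different sign. The probes of the other genes with several probes differed less in mean. The Psmd5 probes averaged -0.56 and -0.47 with the mutant in Cy5 and -0.06 and 0.16 with the mutant in Cy3. The Psmd11 probes averaged -0.40 and -0.35, and 0.11 and -0.15. The Psmb4 probes averaged -0.16 and 0.42, and -0.37 and -0.29, and were both above 0 in the embryos at 0.16 and 0.33. The Psmb6 probes averaged 0.35 and 0.25, and -0.08 and -0.31, yet in adult animal 1 with Cy3 they read 1.40 and -1.60. Of the genes outside the proteasome, Psme3ip1 had 4 probes, of which probe 14413 passed as higher with the mutant in Cy5 (0.54, adjusted p = 0.0419) and averaged -0.31 with the mutant in Cy3.

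**Figure D3:**
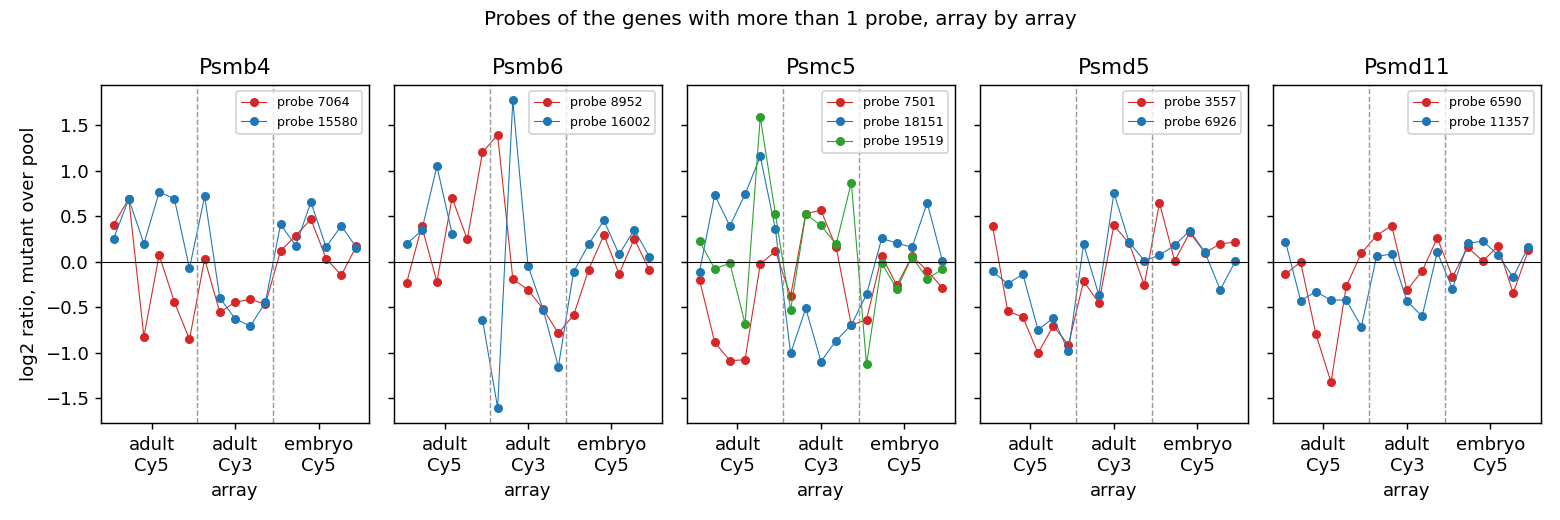
Log2 ratio of mutant over pool for each probe (colour) of the 5 proteasome genes with several probes, array by array; dashed lines part adult arrays with the mutant in Cy5, adult arrays with the mutant in Cy3 and embryos, and lines only join points of a probe. The Psmd5 probes run closer together than the Psmc5 probes, yet read 0.65 and 0.07 in embryo 1 and 0.20 and -0.31 in embryo 5.

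The 19S lid deubiquitinates the substrate. In the adults 5 of its 6 genes lay below 0 and 1 above (median -0.25).

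Psmd14, the deubiquitinating enzyme of the lid, was the exception. It read 0.44, 0.88, 1.69, 1.14 and 0.04 in adult animals 1, 2, 3, 4 and 6 with the mutant in Cy5, with no value in animal 5, and 2.13 and 2.61 in animals 1 and 6 with the mutant in Cy3. All 7 values were above 0, and both Cy3 values were above every Cy5 value. The mean over both orientations in these 5 animals was 1.26 ± 0.30 (95% interval 0.93 to 1.59). It had the smallest p of all features in the adults (p = 5.5e-05) and did not pass after adjustment (adjusted p = 0.639). That rank rests on the direction of the Cy3 arrays: with these turned in sign the mean was 0.315 (adjusted p = 0.650). Animals 2, 3 and 4 entered with their Cy5 array alone, and in animal 6 the values of 0.04 and 2.61 were averaged. In the embryos Psmd14 read 0.12, 0.14, 0.08, 0.11, -0.15 and 0.44 (mean 0.12 ± 0.19).

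The other lid subunits lay lower. Psmd6 read 0.66, -0.63, -1.15, -0.73, -2.01 and -0.49 in adults with the mutant in Cy5, 0.25, 0.05, 0.40, -0.39 and -0.94 with the mutant in Cy3, and 0.27, 0.20, 0.39, 0.04, 0.01 and 0.02 in the embryos. Its Cy5 mean of -0.72 ± 0.87 joins values on both sides of 0. Psmd12 read 0.48, 0.04, -0.34, -0.76, -0.40 and -0.62 with the mutant in Cy5 and -0.13, -0.34, -0.93, -1.41 and -0.71 with the mutant in Cy3. It was below 0 on 5 of 5 Cy3 arrays and 4 of 6 Cy5 arrays, with a mean over the animals of -0.46 ± 0.44 (unadjusted p = 0.0257, adjusted p = 0.639), against 0.13 with the Cy3 arrays turned in sign (adjusted p = 0.484). Psmd13 read -0.18, -1.01, -0.99, -0.36, -0.88 and -0.01 with the mutant in Cy5 and 0.05, 0.35, 0.06, 0.29 and 0.22 with the mutant in Cy3. It averaged -0.57 ± 0.44 with the mutant in Cy5, below 0 in 6 of 6, and 0.19 ± 0.14 with the mutant in Cy3, above 0 in 5 of 5. In the embryos it averaged -0.22 ± 0.35. Psmd11 read 0.04, -0.21, -0.56, -0.87, -0.34 and -0.31 with the mutant in Cy5, 0.17, 0.24, -0.37, -0.35 and 0.18 with the mutant in Cy3, and -0.23, 0.18, 0.12, 0.13, -0.26 and 0.15 in the embryos. Psmd7 averaged -0.16 in the Cy5 and -0.19 in the Cy3 orientation.

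Among the activators, Psme1 and Psme2 encode the interferon-induced PA28 rings, Psme3 the nuclear PA28 gamma and Psme4 PA200, and Psmf1 an inhibitor. In the adults 4 of the 5 lay below 0 (median -0.19). Psme2 read -0.32, -0.26, -0.45, -0.26, -1.06 and -0.64 with the mutant in Cy5, all below 0, and 0.08, -0.03, -0.07, 0.28 and 0.22 with the mutant in Cy3. Its means were -0.50 ± 0.31 (adjusted p = 0.0748) and 0.10 ± 0.15. In the embryos it read 0.07, -0.01, 0.14, 0.20, -0.41 and 0.26. Psmf1, the member above 0, read -0.44, 0.45, 0.39, 0.33, 0.31 and 0.32 with the mutant in Cy5, 3.84, -0.13, -0.63, -0.51 and -0.20 with the mutant in Cy3, and -0.38, -0.57, -0.18, 0.03, 0.04 and -0.17 in the embryos. Its orientations lay on opposite sides of 0 in each animal with both, in animal 1 the other way round. Its adult mean of 0.34 ± 0.69 rested on animal 1, without which it was 0.06 ± 0.18 (n = 5). Psme3 averaged -0.19 in the adults and -0.13 in the embryos, and Psme4 -0.23 and -0.12. Psme1 and Psme2, with 1 gene between them on chromosome 14, averaged -0.07 and -0.30 in the adults and 0.10 and 0.04 in the embryos.

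The assembly chaperones, which build the base and the alpha rings, were all 5 below 0 in the adults (median -0.29) and on the arrays with the mutant in Cy5 (median -0.45). With the mutant in Cy3, 4 of 5 lay above 0 (median 0.12). Psmd5, a chaperone of the base, read 0.15, -0.39, -0.37, -0.88, -0.66 and -0.95 in adults with the mutant in Cy5, -0.01, -0.41, 0.58, 0.21 and -0.12 with the mutant in Cy3, and 0.36, 0.10, 0.33, 0.10, -0.05 and 0.11 in the embryos. Psmg1 and Psmg2, the partners of the alpha ring chaperone, averaged -0.56 and -0.29 with the mutant in Cy5 and 0.18 and 0.21 with the mutant in Cy3. Psmd9 averaged -0.45 with the mutant in Cy5 (n = 4) and Psmd10, also known as gankyrin, -0.19.

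**Figure D4:**
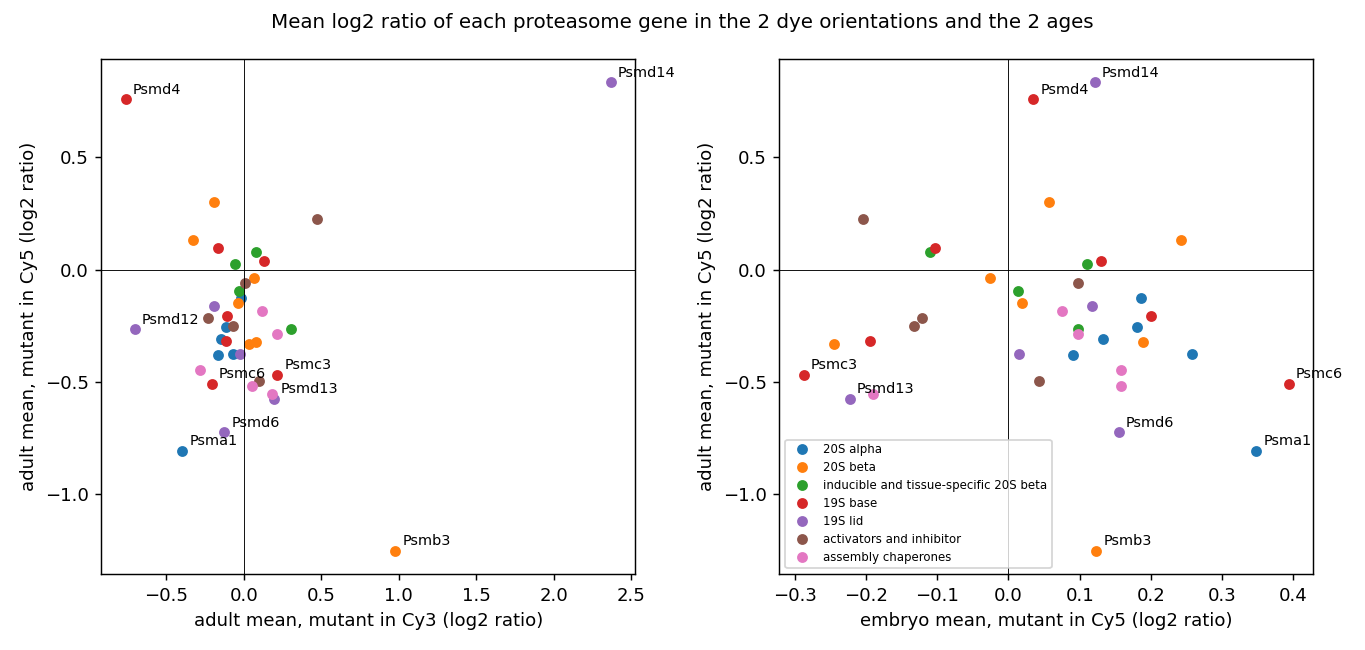
Mean log2 ratio of each proteasome gene with the mutant in Cy5 in adults, against the adult mean with the mutant in Cy3 (left) and against the embryo mean (right), coloured by part of the complex. Psmd4 at -0.76 and 0.76 lies in the upper left of the left panel, and the mean of Psmd14 with the mutant in Cy3 rests on 2 arrays.

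In mutant embryos the proteasome genes leaned the other way, less far. Of 39 genes tested, 28 lay above 0 and 11 below (median 0.10, range -0.29 to 0.39), against a median of 0.00 and 49% below 0 over all 17242 features. Without embryo 3 the proteasome median was 0.02, with 21 genes above 0 and 18 below, and with row names as deposited it was 0.03. The count passing after adjustment was 0, where 0.151% of all features passed, and 4 proteasome genes had an unadjusted p under 0.05, 3 above 0 and 1 below, against 20.8% of all features. The median by embryo was 0.07, 0.12, 0.21, 0.08, -0.02 and 0.02, so embryo 3 stood highest and embryo 5 lay below 0. The beta subunits were split 5 above and 2 below (median 0.06), the base 4 above and 3 below (median 0.03), the lid 4 above and 1 below (median 0.12), the activators 2 above and 3 below (median -0.12) and the chaperones 4 above and 1 below (median 0.10). Psmb4, a structural beta subunit, read 0.27, 0.23, 0.56, 0.10, 0.12 and 0.17 in the embryos, a mean of 0.24 ± 0.17, above 0 in 6 of 6 embryos (adjusted p = 0.151), and Psmb1 and Psmd6 were also above 0 in 6 of 6, at 0.19 and 0.15. Psmd2 was below 0 in 6 of 6, at -0.19.

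**Figure D5:**
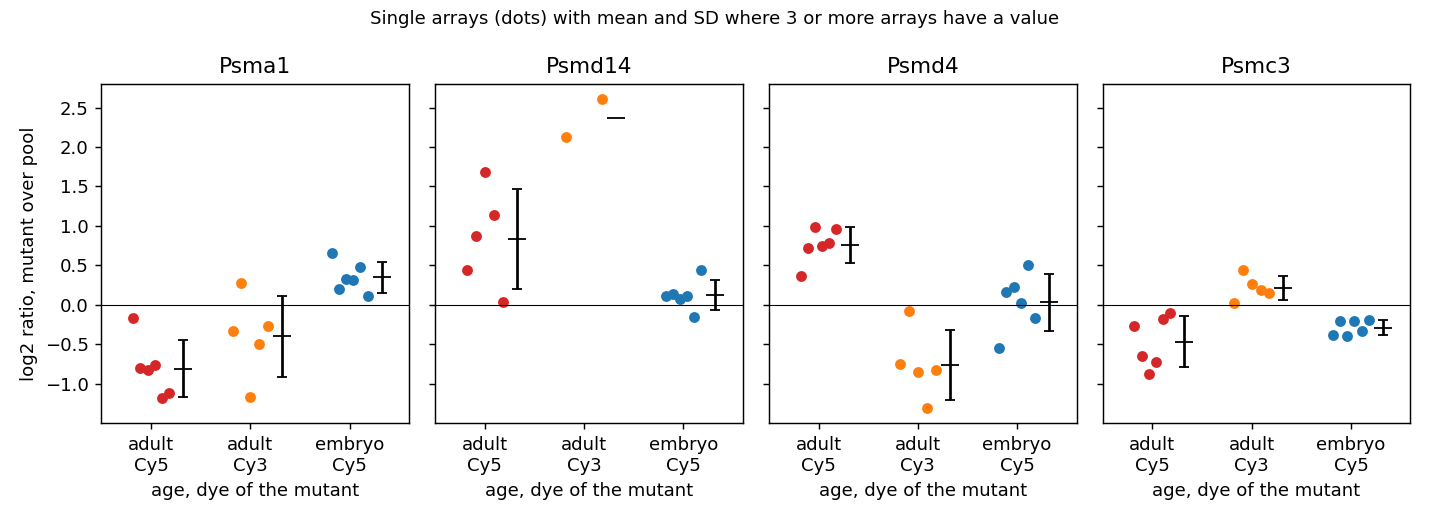
Log2 ratio of mutant over pool on single arrays (dots) for Psma1, Psmd14, Psmd4 and Psmc3, with the mean and SD beside them where 3 or more arrays have a value. Psma1 lies below 0 on each adult Cy5 array and above 0 in each embryo, and the adult Cy5 and Cy3 dots of Psmd4 stand on opposite sides of 0.

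The ages were compared on arrays with the mutant in Cy5, the layout they share. In the adults 32 of 38 proteasome genes had a lower ratio than in the embryos and 6 a higher one (median difference -0.27), against 52.3% lower and a median of -0.02 over all 16314 features. With adult means over both dyes the proteasome median difference was -0.16. Psma1 alone passed, in a comparison where 0.141% of all features passed (15 higher, 8 lower). Its difference, adult minus fetal, was -1.15 (95% interval -1.53 to -0.78, limma adjusted p = 0.0248). Its direction held without any 1 animal, with differences of -1.28 to -1.08, but the call was lost in 8 of the 12 fits (adjusted p 0.0512 to 0.0651) and with adult means over both dyes (-1.02, adjusted p = 0.0540). By an unadjusted p under 0.05, 13 proteasome genes were lower in adults and 3 higher, against 20.2% of all features. Those next to Psma1 in p were Psmd4 at 0.73 (adjusted p = 0.0757), Psmd5 at -0.67 (adjusted p = 0.0871) and Psma4 at -0.63 (adjusted p = 0.0951), none of which passed. All 6 alpha subunits (median -0.45), all 5 chaperones (median -0.39), 5 of 6 beta subunits (median -0.10), 5 of 7 base subunits (median -0.12), 3 of 4 inducible subunits (median -0.10), 4 of 5 lid subunits (median -0.35) and 4 of 5 activators (median -0.12) were lower in adults. Without adult animal 1 the count of all features passing rose from 23 to 1224. Among them were 8 proteasome genes, Psma1, Psma4, Psmb1, Psmc6, Psmd5 and Psmd6 lower and Psmd4 and Psmf1 higher. Age and pool changed together and cannot be told apart. Sex differed as well, as all adults were male and the embryos were of both sexes.

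Which proteasome genes passed with the mutant in Cy5 depended on the animals included. Without animal 1, Psma1 (-0.94), Psmd4 (0.84), Psmd5 (-0.65) and Psmd6 passed, and the count over all features also rose, from 1106 to 1649. Without animal 2, 3, 4, 5 or 6 no proteasome gene passed, and over all features at most 1 did. Over those 5 fits the adjusted p of Psma1 was 0.0543 to 0.0990 and of Psmd4 0.0521 to 0.0990, with means of -0.82 to -0.73 and of 0.71 to 0.77.

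Between female and male mutant embryos no proteasome gene passed, where 0.0116% of 17212 features did. Of 39 genes, 26 were lower in females and 13 higher (median difference -0.11, against 0.00 and 50.1% lower over all features). Without embryo 3 the median difference was -0.07, and without embryo 4 it was -0.16. All 6 alpha subunits were lower in females (median -0.22). Psma4 averaged 0.05 ± 0.13 in females and 0.47 ± 0.25 in males (n = 3 each), a difference of -0.42 with an unadjusted p = 0.0472 and an adjusted p = 0.998 in limma, in a comparison where 3.18% of all features had an unadjusted p under 0.05. Psmf1 averaged -0.04 in females and -0.37 in males, and Psmd6 0.02 and 0.29. The labels call the fetal pool male for 2 of the 3 males and female for the other 4 embryos, so the pool label goes with sex in part.

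Other genes of the ubiquitin pathway were called on the Cy5 arrays at shares near that of all features (6.55%), with 1 of 15 partners and 1 of 20 conjugating enzymes. Of 33 listed ubiquitin and proteasome partners 15 were tested in the adults, with 11 below 0 and 4 above (median -0.16). None passed there, in the embryos or between the ages. Those with the smallest p were Ufd1 at -1.24 and Txnl1 at -0.33 in the adults, Sem1 at 0.23 and Nploc4 at -0.20 in the embryos, and Ube3c at 0.49 and Nploc4 at -0.48 between the ages. On the Cy5 arrays Nploc4, a cofactor of the segregase Vcp, was lower at -0.68 ± 0.39 (adjusted p = 0.0463) and averaged 0.28 with the mutant in Cy3. Ufd1, the partner of Nploc4, was lower with the mutant in Cy3 at -2.49 (n = 3, adjusted p = 0.0359) and averaged -0.40 ± 2.97 with the mutant in Cy5 (n = 4). Of 20 ubiquitin-conjugating enzymes 12 lay below 0 and 8 above in the adults (median -0.05), and Ube2h was lower on the Cy5 arrays at -0.56 (adjusted p = 0.0488), against 0.22 on the Cy3 arrays. The enzymes with the smallest p, none passing, were Ube2j1 at -1.71 and Ube2d3 at -0.38 in the adults, Ube2d2a at 0.21 and Ube2o at -0.22 in the embryos, and Ube2h at -0.60 and Ube2q1 at 0.89 between the ages. Of 7 tested genes of antigen presentation and interferon response, 6 lay below 0 and 1 above in the adults (median -0.25) and 5 above and 2 below in the embryos (median 0.14), with none passing. B2m, the light chain of class I molecules, averaged -0.62 ± 0.53 in adults and 0.20 ± 0.38 in embryos, and Erap1, which trims peptides, -0.35 and 0.32. Irf1 and Tap1, which drive and load antigen presentation, averaged 0.37 and -0.30 in the embryos (adjusted p = 0.0891 each). Of 18 tested subunits of the COP9 signalosome and eIF3, 13 lay below 0 and 5 above in the adults (median -0.09). Some subunits of these complexes share a fold with the lid, and the Eif3 genes were listed by symbol, whatever their fold. Eif3i was higher with the mutant in Cy5 at 1.03 (adjusted p = 0.0304) and averaged -0.68 with the mutant in Cy3 (adjusted p = 0.0529). The smallest p, none passing, belonged to Eif3b at -0.26 and Cops3 at -0.27 in the adults, Eif3k and Eif3i at 0.31 each in the embryos, and Eif3i at 0.73 and Cops4 at -0.43 between the ages.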

How the data were processed

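The authors deposited log2 ratios of the channels for 20794 probes on 17 arrays. Base 2 is an inference from the value range. For scanning, background correction and normalization: not given in the sources used here. Per the labels' protocols, RNA was labelled indirectly with Cy3 and Cy5. Columns with the mutant in Cy3 were left as deposited and assumed to be mutant over pool. All values past 10 in size were negative there and positive on the other arrays, which does not settle the direction. All 51 member probes' Entrez IDs gave the same RefSeq symbol (GRCm38.p6). Probes were averaged per gene and arrays per animal, and unnamed probes were kept on their own. limma 3.58.1 in R 4.3.3 (lmFit, eBayes) tested ratios against 0 or between groups over all features, with Benjamini-Hochberg adjusted p under 0.05 as the threshold. It was tested on simulated data. Features needed values in 4 of 6 animals per group (mutant in Cy3: 3 of 5; sex: 2 per sex). The number of arrays limits the precision.

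The members and gene lists were chosen with earlier results of these data known. Members were named when called in a fit, by gene or probe, among the 3 smallest p of a fit, with several probes, catalytic, or the lid enzyme Psmd14. Members outside that rule (Psma2, Psma5, Psma6, Psma7, Psmb1, Psmb2, Psmb3, Psmb11, Psmc2, Psmc4, Psmd2, Psmd7, Psmd9, Psmd10, Psmd13, Psme1, Psme3, Psme4, Psmg1 and Psmg2) complete their groups, and the detail given for Psmb3 and Psmd13 was chosen after their values were seen. Alternatives for the dye orientations apart (leaving out each animal, centring), and means and counts of all members without each animal, were added after seeing the data.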

Additional observations from a re-analysis of the deposited data

Results flagged for a closer look

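Psma1 differed between adult and fetal arrays with the mutant in Cy5, by -1.15 on the log2 scale.

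In single animals, 14 of 83 groups of values (8 adult, 6 fetal) held a sample far from the others by Dixon's criterion, which chance meets in about 1 in 20 groups. Among the adults, animal 5 stood apart for Psmc4 (-0.59), Psmc5 (0.91), Psmc6 (-1.71) and Psme2 (-1.06), and it has only an array with the mutant in Cy5. Animal 1 stood apart for Psme4 (0.59) and Psmf1 (1.70), and animal 3 for Psmc3ip (-0.67) and Psmd7 (-1.06). Among the embryos, animal 1 stood apart for Psmb5 (-0.69) and Psmc5 (-0.71), animal 3 for Psmb4 (0.56), animal 4 for Psmg1 (-1.52), animal 5 for Psmd2 (-0.65) and animal 6 for Psme3ip1 (0.45).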

How the results depend on the processing

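Of 715 values of single proteasome genes under alternatives, 670 kept their direction and their side of the threshold or moved by less than the spread between animals, 20 were no longer past it, 12 were newly past it, 12 moved and 1 reversed: Psmd4 in the embryos read -0.72 with the adult dye profile subtracted, against 0.03. In the adults, where 0 features passed, 1764 passed with the Cy3 arrays turned in sign (1 proteasome gene, Psmd4), 1106 from the Cy5 arrays alone (2 proteasome genes) and 629 from the Cy3 arrays alone. Leaving out an animal gave 0 to 1649 features and 0 to 4 proteasome genes with the mutant in Cy5 (the most without animal 1), and 0 to 1002 features with the mutant in Cy3, where 4 of 5 such fits passed 0. In the embryos, 26 features became 4930 with the dye profile subtracted (11 proteasome genes), 88 for single probes, 61 with a value in every animal, 83 without values beyond 10 and 2 to 5 without 1 embryo. The fit with the profile subtracted took it as fixed, without its spread between the adults. Between the ages, 23 became 9 with adult means over both dyes, where Psmd14 passed (1.14, adjusted p = 0.0289), 1579 with row names as deposited (5 proteasome genes), 36 with a value in every animal, 42 without values beyond 10 and 4 to 1224 without 1 animal (0 to 8 proteasome genes). That call of Psmd14 takes in Cy3 arrays, whose direction the labels do not state, and animals with a Cy5 value alone. With the replicate number of the labels as a block the count between the ages was 10 features, 0 proteasome genes and a proteasome median of -0.14. Same-numbered adult and fetal arrays did not deviate together (r = 0.0146, 0.00754 and -0.00255 for numbers 1, 3 and 5), so the numbers do not pair the samples. Between the sexes, 2 became 25 with only pools labelled female, 0 with a value in every animal or without values beyond 10, and 0 to 4 without 1 embryo, and the proteasome median of -0.11 became -0.0205 with row names as deposited and -0.18 with only pools labelled female. The setting with no filter beyond 2 values was not run for the sexes, since it is their filter. The causes were not tested. Missing values limit Psmb3, Psmb6, Psmd9 and Psmd14.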
